A study of Homo sapiens with 16 samples.

Results

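The long noncoding RNAs MALAT1, NEAT1, NORAD, TUG1, OIP5-AS1 and KCNQ1OT1 were followed through the depletion of HNRNPH1. They were picked by gene symbol from the short-read tables, with earlier results of these data known. They make up 6 of 61906 listed genes, with 58 of 251295 listed transcripts. MALAT1 has 17 listed transcripts, NEAT1 9, TUG1 20, OIP5-AS1 10, and NORAD and KCNQ1OT1 1 each. MALAT1, NEAT1 and KCNQ1OT1 lie on chromosome 11, NORAD on 20, OIP5-AS1 on 15 and TUG1 on 22. RefSeq classes 5 of them as long noncoding and TUG1 as protein coding.

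The cells were HEK-293T, a human embryonic kidney line, and HT-1080, a human fibrosarcoma line. Both lines received 20 nM siRNA with a lipid reagent. The siRNA was a control (siNegative) or targeted HNRNPH1 (siHNRNPH1), and harvest followed after 48 h. Each of the 4 groups had 3 short-read libraries from biological replicates and 1 full-length cDNA (IsoSeq) pool.

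HNRNPH1 is a nuclear RNA-binding protein of the HNRNPH/F family, which binds runs of G and acts in splicing and 3′-end choice. NEAT1 is the scaffold of paraspeckles, nuclear bodies that need its long form, while its short form ends early at a poly(A) site. MALAT1 gathers in nuclear speckles, KCNQ1OT1 silences imprinted genes from its parental allele, and TUG1 is found in nucleus and cytoplasm. NORAD, which binds PUMILIO proteins, and OIP5-AS1 are known mainly from the cytoplasm, so the word nuclear describes the set only in part. Whole-cell RNA was measured, and location was not.

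The first 30 transcribed bases at the RefSeq starts (GRCh38.p14) are shown for the members that have an entry, to set beside the starts of the IsoSeq models described later. Capitals mark runs of at least 3 G. The windows are chr11:65497738-65497767 and chr11:65499045-65499074 for the MALAT1 starts on the plus strand, chr15:41283990-41284019 plus for OIP5-AS1, chr20:36050931-36050960 minus for NORAD and chr22:30969265-30969294 plus for TUG1.
MALAT1, upstream start: cgcagcctgcagcccgagacttctgtaaag
MALAT1, downstream start: aggcattgaggcagccagcgcaGGGGcttc
OIP5-AS1: aGGGttggccaccttgagaagctgcgaaga
NORAD: agttccggtccggcagagatcgcggagaga
TUG1: gagcgacgcagccGGGacggtagctgcggt
GGG occurred on the transcribed strand in 3 of these windows, and in 41.3% of 35116 RefSeq start windows of the same length. Its complement CCC occurred in 36.2% of them.

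The siRNA lowered its target in both lines. The log2 fold change of HNRNPH1 was -1.76 in HEK-293T cells (edgeR adjusted p = 0.00939), or -1.58 without siHNRNPH1 replicate 1. For HT-1080 cells the value was -1.49 (edgeR adjusted p = 6.76e-09). Library totals were 107.75 to 121.03 M expected counts in HEK-293T and 27.3 to 32.65 M in HT-1080. Levels are given as CPM, the count per M of library total, which is not scaled for length, so they are not compared between genes. All 8 mesenchymal markers were higher in HT-1080. Of 5 tested embryonic and neural markers, 3 were higher in HEK-293T (NEFM and LIN28B among them) and 2 were lower, NEFL among them. The 6 markers of other cell types, summed, came to 0.828 to 0.909 CPM in HEK-293T siNegative and 1.74 to 2.53 CPM in siHNRNPH1, and to at most 0.551 CPM in HT-1080. Of these, CD14 and EPCAM rose in HEK-293T by 2.41 and 0.95 (edgeR adjusted p = 0.0295 and 0.0241), and by 1.88 and 0.87 without siHNRNPH1 replicate 1. CD3E was at 0 in all libraries but 1. The part of these low counts in the results was not tested. Replicate 1 of HEK-293T siHNRNPH1 stood apart, with a log2 CPM correlation of 0.8897 and 0.8778 with its fellows against 0.9984 between those, so results in HEK-293T are set beside those without it.

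NEAT1 and MALAT1 fell in HEK-293T. NEAT1 stood at 241, 246 and 251 CPM in the siNegative libraries and at 21.4, 55.0 and 55.8 CPM in the siHNRNPH1 libraries, replicates 1 to 3. Every siHNRNPH1 library was below every control, with replicate 1 lowest. The log2 fold change was -2.52 (SE 0.36; edgeR adjusted p = 0.01625), and -2.21 (SE 0.03; edgeR adjusted p = 2.33e-22) without replicate 1.

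MALAT1 stood at 91.2, 91.0 and 93.1 CPM in siNegative and at 13.3, 31.5 and 33.4 CPM in siHNRNPH1 of HEK-293T. The groups did not overlap. The log2 fold change was -1.86 (SE 0.33; edgeR adjusted p = 0.0265), and -1.56 (SE 0.04; edgeR adjusted p = 3.88e-19) without replicate 1. Both calls were lost when single libraries were left out. Without any one siNegative library, the edgeR adjusted p was 0.0899 to 0.0936 for NEAT1 and 0.121 to 0.126 for MALAT1. Without siHNRNPH1 replicate 2 it was 0.0621 for NEAT1 and 0.0787 for MALAT1, and without replicate 3 it was 0.0592 for MALAT1.

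These were 2 of 6 members called in HEK-293T, against 10.0% of all genes tested. Without siHNRNPH1 replicate 1, 6 of 6 were called, 5 lower and 1 higher, against 61.8% of all genes (31.3% lower and 30.5% higher), so the share rose across the genome too. In bulk RNA, fewer cells of a kind and less RNA per cell cannot be told apart.

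The other 4 members did not pass the test in HEK-293T with all libraries. TUG1, which has roles in gene silencing, stood at 330.45, 331 and 331 CPM in siNegative and at 72.5, 193 and 206 CPM in siHNRNPH1. All treated libraries were lower. Its log2 fold change was -1.12 (SE 0.37; edgeR adjusted p = 0.1195), and -0.79 (edgeR adjusted p = 1.80e-15) without replicate 1. DESeq2 gave an adjusted p of 0.0223 with all libraries.

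NORAD, the PUMILIO-binding RNA, stood at 260.5, 265 and 261 CPM in siNegative and 90.0, 222 and 232 CPM in siHNRNPH1. The groups did not overlap, but replicates 2 and 3 lay close to the controls. Its log2 fold change was -0.57 (edgeR adjusted p = 0.341), and -0.26 (edgeR adjusted p = 6.50e-08) without replicate 1. KCNQ1OT1 went from 22.8, 22.4 and 23.8 CPM to 3.83, 16.6 and 17.9 CPM. This was -0.89 on the log2 scale (edgeR adjusted p = 0.337), and -0.47 (edgeR adjusted p = 4.62e-08) without replicate 1.

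OIP5-AS1, known to bind HuR and miR-7, was the exception in HEK-293T. It stood at 71.3, 69.5 and 72.3 CPM in siNegative and at 53.6, 90.6 and 94.6 CPM in siHNRNPH1. Replicate 1 was below the controls and replicates 2 and 3 were above them, so the groups overlapped. Its log2 fold change was 0.13 (edgeR adjusted p = 0.74), and 0.32 (edgeR adjusted p = 2.61e-08) without replicate 1.

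Replicate 1 held less of all 6 RNAs than its fellows. The ratio of its level to the mean of replicates 2 and 3 ran from 0.222 for KCNQ1OT1 to 0.579 for OIP5-AS1. Over 14416 genes the median of this ratio was 0.937 and its 10th percentile 0.391. Its part in the results was not tested beyond leaving the library out.

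**Figure D1:**
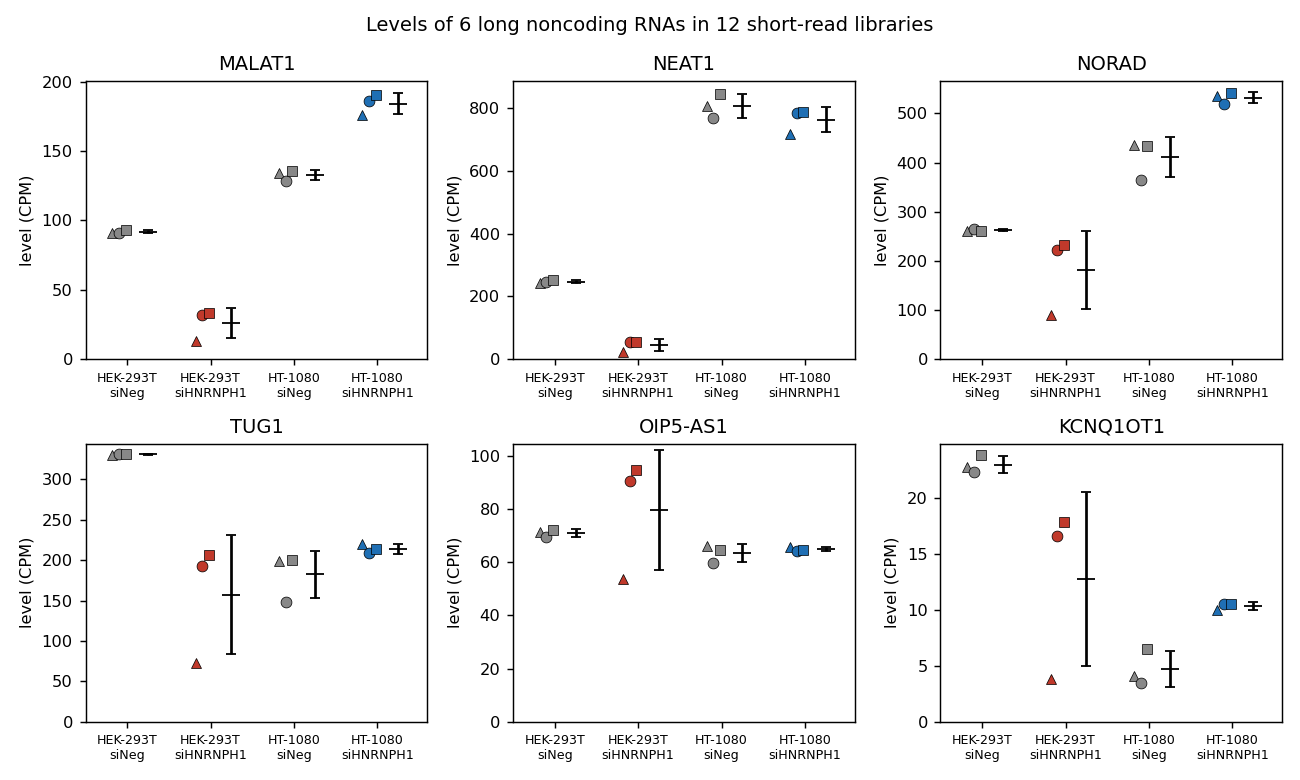
Level in CPM (y axis, from 0) of each RNA in the 12 short-read libraries by group. Triangles, circles and squares are replicates 1, 2 and 3, and bars are mean ± SD (n = 3). In HEK-293T the siHNRNPH1 triangle lies below its fellows in all 6 panels.

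In HT-1080 the same siRNA went with higher MALAT1, NORAD and KCNQ1OT1. MALAT1 stood at 134, 129 and 136 CPM in siNegative and at 176, 186 and 191 CPM in siHNRNPH1. No libraries of the groups overlapped. The log2 fold change was 0.40 (SE 0.04; edgeR adjusted p = 3.20e-05).

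KCNQ1OT1 stood at 4.10, 3.45 and 6.51 CPM in siNegative and at 9.97, 10.5 and 10.5 CPM in siHNRNPH1. All treated libraries were higher, by 1.07 on the log2 scale (SE 0.18; edgeR adjusted p = 0.000596). NORAD stood at 436, 364 and 434 CPM and then at 536, 519 and 541 CPM, a log2 fold change of 0.30 (SE 0.07; edgeR adjusted p = 0.00264). Its siNegative replicate 2 was the low library.

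Total NEAT1 in HT-1080 stood at 808, 770.0 and 846 CPM in siNegative and at 718, 784 and 789.6 CPM in siHNRNPH1. The groups overlapped. Their log2 fold change was -0.15 (SE 0.05; edgeR adjusted p = 0.0356), and the call was lost with library-size scaling (edgeR adjusted p = 0.228) and when any one library other than siNegative replicate 2 was left out (edgeR adjusted p = 0.0578 to 0.164).

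TUG1 stood at 199, 148 and 200.1 CPM in siNegative and at 220.0, 208 and 213 CPM in siHNRNPH1, again with siNegative replicate 2 low. The log2 fold change of 0.16 did not pass (edgeR adjusted p = 0.163). OIP5-AS1 stood at 66.3, 59.7 and 64.6 CPM and then at 65.7, 64.3 and 64.6 CPM, and did not pass (log2 fold change -0.04; edgeR adjusted p = 0.534). In all, 4 of 6 members were called in HT-1080, 3 higher and 1 lower, against 65.3% of all genes (32.7% higher, 32.6% lower). When all 12 libraries shared one spread, none of the 6 was called in HT-1080, where the edgeR adjusted p was 0.0942 for KCNQ1OT1, 0.243 for MALAT1 and 0.423 for NORAD.

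By the interaction in edgeR, the siRNA effect differed between the lines for 4 of 6 members, against 19% of all genes. All 4 had the higher log2 fold change (less negative or more positive) in HT-1080, against 8.13% of all genes in that direction. The effect in HT-1080 minus that in HEK-293T was 2.31 log2 units for NEAT1 (SE 0.35; edgeR adjusted p = 0.00117) and 2.20 for MALAT1 (SE 0.33; edgeR adjusted p = 0.00105). KCNQ1OT1 differed by 1.91 (edgeR adjusted p = 0.0475) and TUG1 by 1.22 (edgeR adjusted p = 0.04995), both at the threshold. With size factors of the DESeq2 type in edgeR, KCNQ1OT1 and TUG1 were no longer called (edgeR adjusted p = 0.0502 and 0.0542). Of the 12 fits that left out a single library, 8 called only NEAT1 and MALAT1. NORAD differed by 0.81 and OIP5-AS1 by -0.23, and neither passed (edgeR adjusted p = 0.129 and 0.491).

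Without HEK-293T siHNRNPH1 replicate 1 all 6 differed, against 49.0% of all genes (22.7% higher and 26.4% lower in HT-1080). The differences were then 2.01 for NEAT1, 1.91 for MALAT1, 1.49 for KCNQ1OT1, 0.90 for TUG1, 0.52 for NORAD and -0.41 for OIP5-AS1. For OIP5-AS1 the log2 fold change was the lower one in HT-1080, and for the other 5 the higher one.

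**Figure D2:**
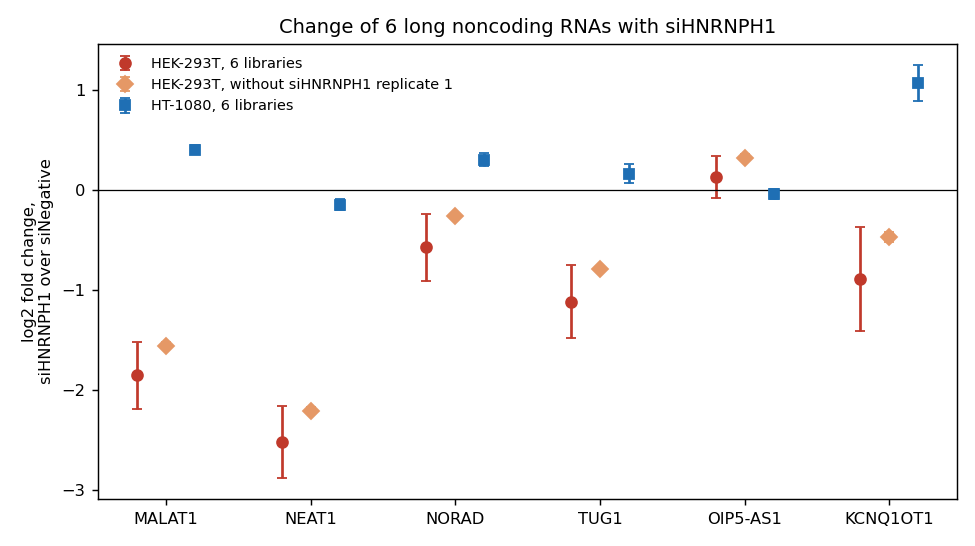
Log2 fold change of siHNRNPH1 over siNegative (y axis) with its SE for each RNA, in HEK-293T with 6 libraries, in HEK-293T without siHNRNPH1 replicate 1, and in HT-1080. MALAT1 is at -1.86 in HEK-293T and at 0.40 in HT-1080.

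Within NEAT1, the long transcript took a larger share in siHNRNPH1 of both lines. The long form is ENST00000501122.2. The short transcripts lie inside it, so the split between them is RSEM's estimate. Shares are of counts not scaled for length, so they are not shares of molecules. Total NEAT1 CPM depends on this mix of lengths too. In HT-1080 its share of NEAT1 counts was 24.6, 22.6 and 22.8% in siNegative and 57.8, 56.3 and 51.8% in siHNRNPH1. The ranges were far apart, and the usage log2 fold change against the other NEAT1 transcripts was 2.03 (limma diffSplice adjusted p = 7.32e-15), where 6.60% of all transcripts passed.

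In HEK-293T the share was 11.9, 13.4 and 13.5% in siNegative and 30.9, 40.8 and 42.0% in siHNRNPH1. All treated libraries were higher, replicate 1 least. The usage log2 fold change was 2.75 and did not pass (limma diffSplice adjusted p = 0.152), where 2.44% of transcripts passed, and it was 2.28 (limma diffSplice adjusted p = 3.83e-12) without replicate 1. An exact permutation test of 3 against 3 cannot go below p = 0.1, which the shares that did not overlap reached, and over 34 such tests no adjusted p was below 0.262.

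The levels behind these shares moved differently in the lines. In HT-1080 the long form went from 188.4 CPM ± 13.1 to 421.8 CPM ± 17.0 (SD, n = 3), a rise of 1.14 on the log2 scale (edgeR adjusted p = 0.000254). The other 8 transcripts summed went from 619.5 CPM ± 30 to 342.1 CPM ± 38.4 (SD, n = 3). Among them, the short form ENST00000499732.3 fell by 1.20 (edgeR adjusted p = 0.0038) and ENST00000645023.1 fell by 0.97 (edgeR adjusted p = 0.000607).

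In HEK-293T the long form stood at 28.7, 33.0 and 33.9 CPM in siNegative and at 6.63, 22.4 and 23.4 CPM in siHNRNPH1. The other 8 summed stood at 213, 213 and 217 CPM and then at 14.8, 32.5 and 32.4 CPM. So both were lower in every treated library, the other 8 more so. Without replicate 1 the long form fell by 0.53 (edgeR adjusted p = 0.0207), while ENST00000499732.3 fell by 2.76 (edgeR adjusted p = 0.000637) and ENST00000645023.1 fell by 2.81 (edgeR adjusted p = 0.000266). With replicate 1, no NEAT1 transcript passed in HEK-293T (the lowest edgeR adjusted p of the named ones was 0.0656).

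RSEM gave ENST00000646243.1 counts in the HEK-293T controls and none in the HT-1080 controls, a difference that was not tested. It held 21.1, 21.1 and 23.7% of NEAT1 in HEK-293T siNegative and was listed at 0 in all 3 HT-1080 siNegative libraries. Replicate 1 of HEK-293T siHNRNPH1 gave it 58.6%, against 11.2 and 17.8% in replicates 2 and 3.

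**Figure D3:**
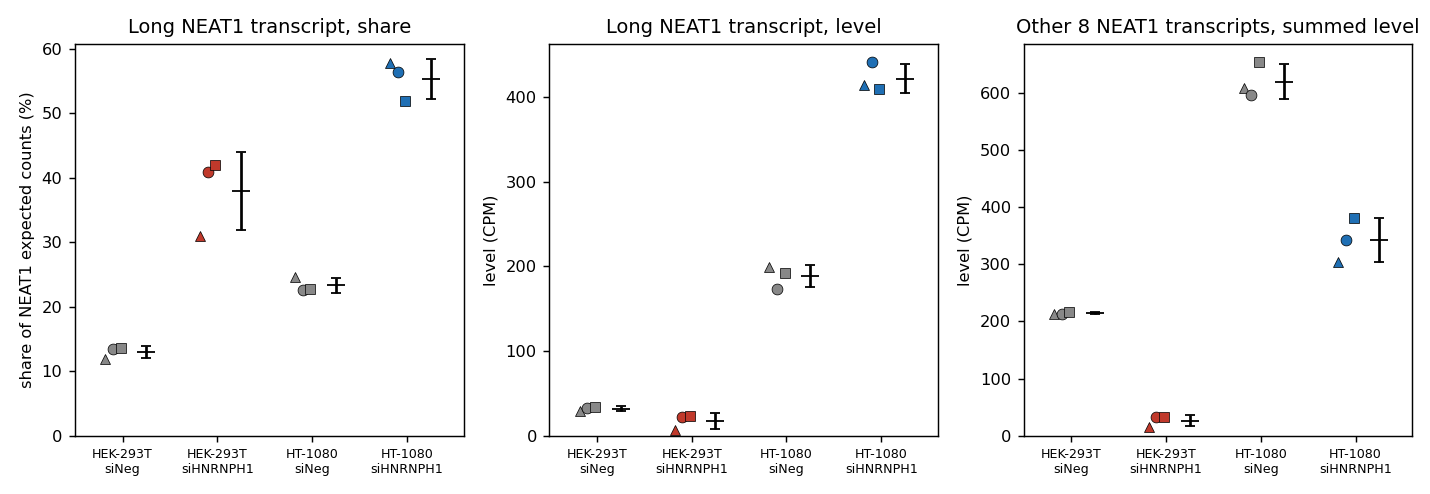
Share of NEAT1 expected counts held by the long transcript (left, %), its level (middle, CPM) and the summed level of the other 8 transcripts (right, CPM), by group and replicate with mean ± SD (n = 3), all axes from 0. The long form's share is higher in siHNRNPH1 of both lines, while its level is higher in HT-1080 and lower in HEK-293T.

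The IsoSeq pools list transcript models without read counts, 1 pool per group, so these are descriptions. NEAT1 had 10 models in HEK-293T siNegative, 7 in HEK-293T siHNRNPH1, 21 in HT-1080 siNegative and 27 in HT-1080 siHNRNPH1. In that order the pools list 64705, 94847, 72186 and 68078 models of all genes, so member counts cannot be compared directly between pools. Most NEAT1 models ended within 10 bases of position 65426525 on chromosome 11, the 3′ end of the short form. The most common start was 65422798, but only 1, 1, 7 and 5 models began within 10 bases of it, in the same order of pools. Model lengths ran from 171 to 5837 bases, so most models do not span the whole short form. Models whose end lay more than 10 bases past that 3′ end numbered 0 of 10 and 2 of 7 in HEK-293T siNegative and siHNRNPH1. In HT-1080 they numbered 1 of 21 (4.76%, Clopper-Pearson 95% interval 0.12 to 23.8%) and 8 of 27 (29.6%, 13.8 to 50.2%). These intervals overlap. They treat models as independent counts, which they are not, so they do not measure a difference between the pools. Several of the 8 shared the end 65445529 with the HT-1080 siNegative model and differed in their start. Of the models ending past that 3′ end, some also began past it, so those do not overlap the short form. They were 1 of 2 in HEK-293T siHNRNPH1, 1 of 1 in HT-1080 siNegative and 6 of 8 in HT-1080 siHNRNPH1. One more of the 8 ended only 11 bases past it. The farthest models reached 19004 bases past the 3′ end in both HT-1080 pools and 13168 bases in HEK-293T siHNRNPH1.

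**Figure D4:**
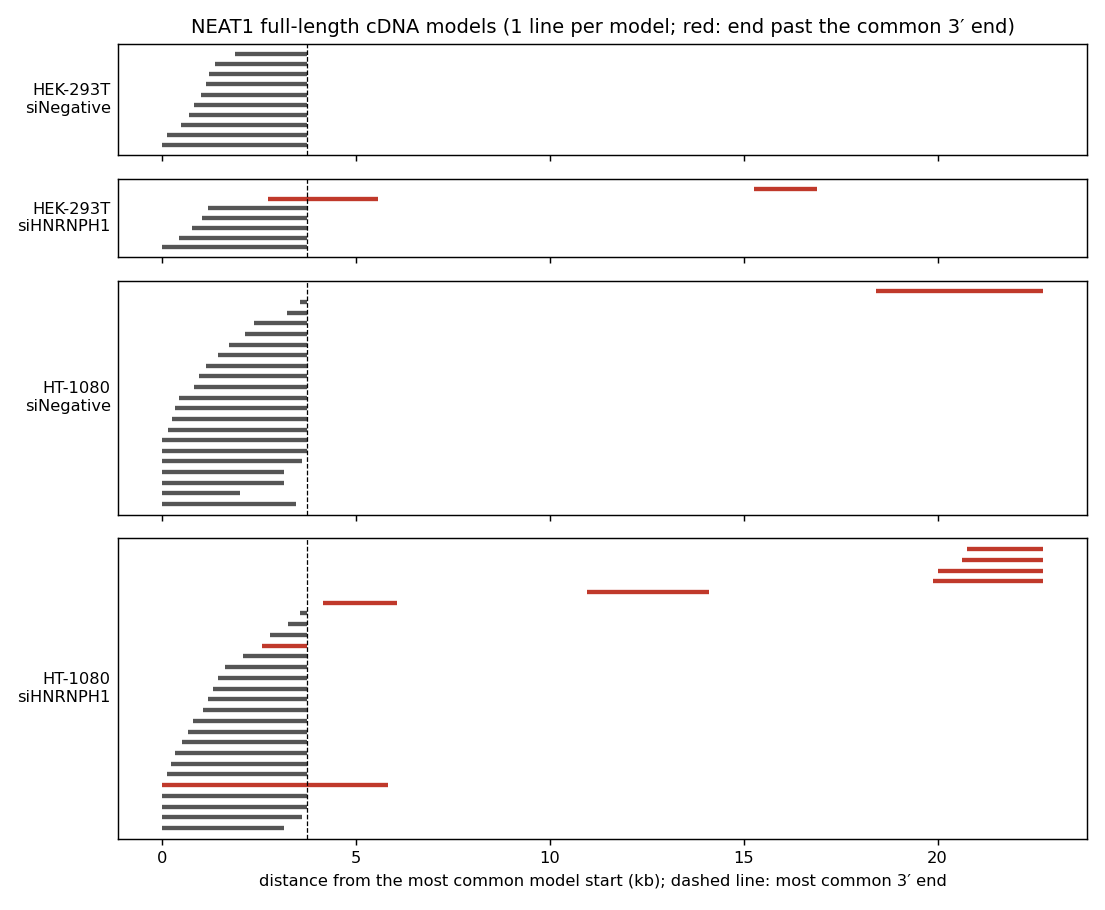
NEAT1 IsoSeq models in each pool, 1 line per model, by distance in kb from the most common start (x axis). Most models do not begin at that start. The dashed line is the most common 3′ end, and red models end more than 10 bases past it: 0, 2, 1 and 8 models from top to bottom.

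MALAT1 usage also shifted in HT-1080. ENST00000534336.2 held 49.9, 54.1 and 51.2% of MALAT1 in siNegative and 36.3, 42.2 and 44.8% in siHNRNPH1, while ENST00000619449.2 held 41.1, 34.1 and 39.6% and then 53.8, 45.8 and 46.7%. The shares did not overlap between groups. The usage log2 fold changes were -0.59 and 0.60 (limma diffSplice adjusted p = 0.000884 and 0.000844). With single libraries left out, the limma diffSplice adjusted p reached 0.0569 for MALAT1 as a gene and 0.0505 for ENST00000619449.2. The call was thus not kept in every such fit. As a level, ENST00000619449.2 rose by 0.79 (edgeR adjusted p = 0.00364).

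In HEK-293T, ENST00000619449.2 held 32.3, 31.5 and 32.0% of MALAT1 in siNegative and 1.45, 42.1 and 42.1% in siHNRNPH1. Replicate 1 was far below and the others above the controls. Without it the usage log2 fold change was 0.62 (limma diffSplice adjusted p = 6.85e-05) and that of ENST00000534336.2 was -0.45 (limma diffSplice adjusted p = 0.00247). With it they were -1.20 and 0.28 (limma diffSplice adjusted p = 0.523 and 0.944), so their directions turned on that library.

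OIP5-AS1 was mostly 1 transcript, ENST00000500949.6, at 89.2, 88.0 and 88.1% in HEK-293T siNegative and 78.9, 94.6 and 94.2% in siHNRNPH1. It held 92.7 to 95.8% across the HT-1080 libraries. In TUG1, ENST00000643920.1 held 73.5% in replicate 1 of HEK-293T siHNRNPH1 and 16.2 and 17.1% in replicates 2 and 3.

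Transcript usage changed for 2 members in HT-1080, NEAT1 and MALAT1, against 19.6% of genes tested for usage. In HEK-293T none of the 4 members tested passed (limma diffSplice adjusted p from 0.232), against 8.56% of genes. Without siHNRNPH1 replicate 1 all 4 passed, NEAT1, MALAT1, TUG1 and OIP5-AS1, against 39.5%. NORAD and KCNQ1OT1 have 1 listed transcript each and could not be tested. Of the 58 listed transcripts of the members, 6 were called as levels in HT-1080, where 16.1% of all tested transcripts were called. In HEK-293T it was 0, where 0.248% were called, and 23 without replicate 1, where 16.0% were called. How many member transcripts entered each test is not given here, so these counts cannot be read as shares.

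IsoSeq models were also listed for 4 other members. MALAT1 had 11 and 12 models in HEK-293T and 29 and 21 in HT-1080, siNegative first. Their most common start, 65499045, is the downstream start printed above, and 8, 8, 16 and 13 models began within 10 bases of it. A model of HEK-293T siHNRNPH1 began at 65497746, within 10 bases of the printed upstream start. MALAT1 models were 350 to 5826 bases long. NORAD had 28, 28, 22 and 23 models in the same order of pools, all of a single exon. The most common NORAD start was 36050960, the printed start, and the longest model 5335 bases. For TUG1 the starts were scattered. The most common one was 30969233, upstream of the printed start at 30969265. In the same order of pools, 0, 1, 4 and 4 TUG1 models began within 10 bases of it. Within 10 bases of the printed start there were 0, 1, 3 and 3. For OIP5-AS1 the most common start was 41284005, 15 bases downstream of the printed start and past the GGG marked there. The OIP5-AS1 model of HT-1080 siNegative began at the printed start. TUG1 had 6, 6, 14 and 13 models, all spliced, OIP5-AS1 had 1 spliced model per pool, and KCNQ1OT1 had none listed.

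In the control libraries, the lines differed in 5 of 6 members, against 86.6% of all genes. Over HEK-293T, HT-1080 held more NEAT1 (log2 difference 1.97; edgeR adjusted p = 1.64e-10), NORAD (0.90; edgeR adjusted p = 5.28e-07) and MALAT1 (0.79; edgeR adjusted p = 3.02e-08). It held less KCNQ1OT1 (-2.04; edgeR adjusted p = 6.23e-07) and TUG1 (-0.61; edgeR adjusted p = 0.000187). The libraries of the lines did not overlap in CPM for any of the 6 RNAs, but the share of all genes without overlap was not counted. OIP5-AS1, whose CPM was 0.894 times that of HEK-293T, did not pass after TMM scaling (0.09; edgeR adjusted p = 0.0913), and its sign turned with library-size scaling (-0.16; edgeR adjusted p = 0.0113). The median of all genes was -0.10 with TMM scaling and -0.36 with library-size scaling. The lines came in separate tables of different depth, so line, table and depth cannot be told apart here.

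The mRNAs of proteins in the bodies that hold these RNAs were also measured, proteins themselves were not. This list and those below were chosen with earlier results of these data known, so their counts are descriptions only. Of 15 genes for paraspeckle proteins, 13 fell and 2 rose in HT-1080, with a median log2 fold change of -0.45 against 0.0055 over all genes, with 32.6% of all genes called lower and 32.7% higher. RBM14, needed for paraspeckle assembly, fell by 1.69 (edgeR adjusted p = 7.29e-09), and SFPQ, a core component, fell by 0.81 (edgeR adjusted p = 2.86e-07). HNRNPH3, a relative of HNRNPH1, rose by 0.90 (edgeR adjusted p = 7.46e-08). In HEK-293T, 3 fell and 1 rose (4.88% and 5.12% of all genes), and 8 fell and 4 rose without replicate 1 (31.3% and 30.5%). TAF15 fell by 2.09 (edgeR adjusted p = 0.00335), EWSR1 fell by 0.87 (edgeR adjusted p = 0.0104) and HNRNPH3 rose by 1.11 (edgeR adjusted p = 0.0138). Without replicate 1 these log2 fold changes were -2.10, -0.85 and 1.23. The effects on RBM14 and TAF15 differed between the lines, by -1.37 and 1.25 (edgeR adjusted p = 6.30e-05 and 3.46e-05), and by -1.29 and 1.29 without replicate 1.

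Of 10 genes for nuclear speckle proteins, 9 fell and 0 rose in HT-1080, against 32.6% lower and 32.7% higher among all genes, and the median log2 fold change was -0.33. SRSF3, SRSF2 and SRSF1, splicing factors, fell by 0.77, 0.74 and 0.70. None passed in HEK-293T with all libraries, and 8 fell without replicate 1 (31.3% of all genes), among them SON, a speckle scaffold, with a log2 fold change of -0.48 (edgeR adjusted p = 9.71e-13). Of 17 exosome and nuclear RNA decay genes, 11 fell and 1 rose in HT-1080, a total of 12 against 65.3% of all genes called, with EXOSC8, ZCCHC8 and EXOSC9 falling by 1.15, 1.08 and 1.0. None passed in HEK-293T with all libraries, and 9 fell and 4 rose without replicate 1, where 61.8% of all genes were called.

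Of 8 genes for NORAD partners, 5 fell and 2 rose in HT-1080, against 65.3% of all genes called. ALYREF, an export adaptor, fell by 1.07, and PUM2, a PUMILIO protein, fell by 0.37 while NORAD rose. In HEK-293T none passed, and 6 fell and 2 rose without replicate 1, against 61.8% of all genes called.

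Of 13 tested genomic neighbours, 7 fell and 3 rose in HT-1080, against 65.3% of all genes called. OIP5, a neighbour of OIP5-AS1, went from 13.1 CPM ± 0.916 to 4.17 CPM ± 0.528 (SD, n = 3) there, while OIP5-AS1 did not pass. NUSAP1, a spindle gene beside it, fell by 1.57, and SLC22A18, in the imprinted domain of KCNQ1OT1, rose by 1.23 (edgeR adjusted p = 4.56e-06). KCNQ1, the host on the other strand of KCNQ1OT1, was listed at 0 in all HT-1080 libraries and did not exceed 0.974 CPM in HEK-293T. TALAM1, antisense to MALAT1, stayed at or below 0.514 CPM. The strand setting of the counting is not given in the sources used here, so reads of antisense partners cannot be told apart. None of 14 tested neighbours passed in HEK-293T with all libraries, and without replicate 1 there were 4 that fell and 1 that rose, against 61.8% of all genes called.

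Among 18 other long noncoding RNAs, 12 were tested in HT-1080 and 6 rose and 4 fell, against 32.7% and 32.6% of all genes. FIRRE, a nuclear organiser, rose by 1.09, MIR17HG, a miRNA host, fell by 1.05, and JPX, an activator of XIST, rose by 0.71. In HEK-293T, 3 of 16 fell, JPX by 0.76, MIR17HG by 0.75 and LINC-PINT by 0.70 (edgeR adjusted p = 0.0405, 0.0359 and 0.0396), against 4.88% of all genes lower. Without replicate 1, 7 fell and 3 rose, with a median log2 fold change of 0.0092, against 31.3% and 30.5% of all genes. JPX differed between the lines by 1.41 (edgeR adjusted p = 0.000175), and by 1.28 without replicate 1, with the higher log2 fold change in HT-1080.

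**Figure D5:**
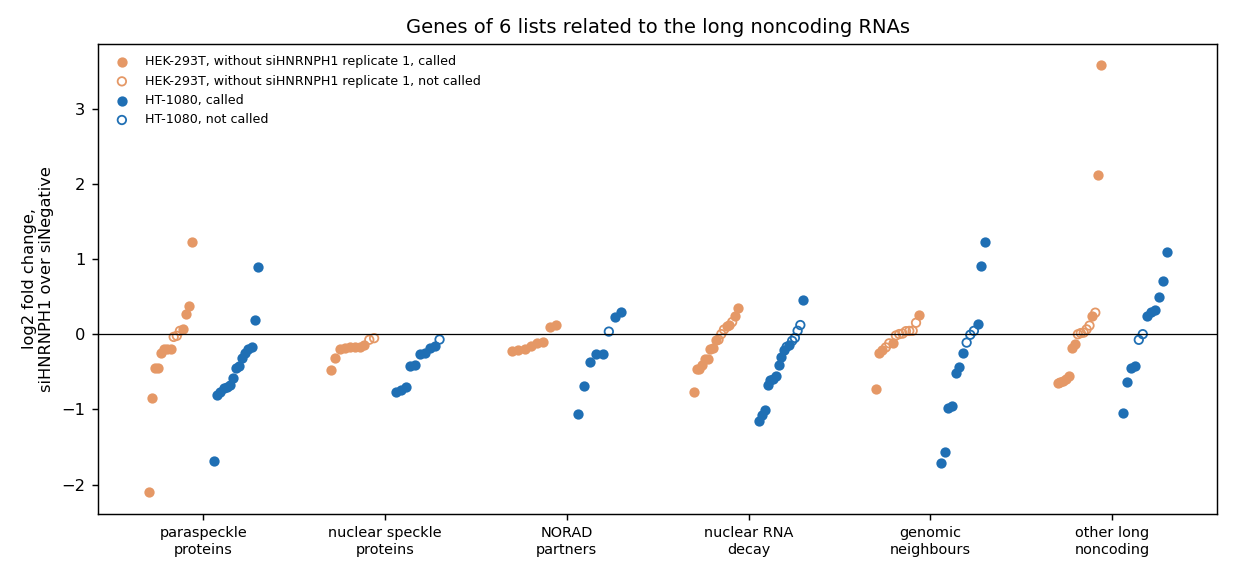
Log2 fold change of siHNRNPH1 over siNegative (y axis) for the tested genes of 6 lists, in HEK-293T without siHNRNPH1 replicate 1 (orange) and in HT-1080 (blue). Filled points passed the edgeR threshold of 0.05 and open points did not. RBM14 at -1.69 is the lowest blue point among the paraspeckle proteins.

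The genes most like each member over the 12 libraries were ranked by Pearson r of log2(CPM + 1) among 10408 genes, a description in which cell line and replicate 1 are shared by all points. MALAT1 was nearest to ZDHHC5 (r = 0.9959) and PTPRA (0.9898), NEAT1 to ENSG00000268362 (0.9923) and WNT5A (0.9921), and NORAD to PIK3CA (0.9983) and PTK2 (0.9966). TUG1 was nearest to SEC23A (0.9852) and C6orf89 (0.9837), OIP5-AS1 to MEF2A (0.9873), and KCNQ1OT1 to PCGF3 (0.9885) and EXOC2 (0.9822). WNT5A stood at 38.6, 39.8 and 39.7 CPM in HEK-293T siNegative and at 8.46, 16.2 and 16.9 CPM in siHNRNPH1, low where NEAT1 was low.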

How the data were processed

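Short-read RNA-seq was measured in 12 libraries and full-length cDNA in 4 pools. The deposited short-read values are RSEM expected counts per transcript, with genome build GRCh38.p13, per the submitters' processing notes. The aligner, versions and strandedness are not given in the sources used here. The deposited IsoSeq files hold exon positions. All sample columns were matched by name, with 0 unmatched. Gene totals of expected counts were rounded. Genes and transcripts past filterByExpr were scaled by TMM and tested with edgeR 4.0.16 (quasi-likelihood, two-sided, robust), within each line, between control lines and for the interaction over all 12 libraries. Usage was tested with limma 3.58.1 diffSplice. Adjusted p-values are Benjamini-Hochberg over all features, threshold 0.05. DESeq2 1.42.0 was an alternative. R was 4.3.3. The labels call the replicates biological. No 2 libraries of a group agreed within counting noise (chi-square per degree of freedom 1.74 to 773). The tests were tried on simulated data. Named genes were all 6 members, their transcripts with a share of at least 5% in any group, the 3 called genes of largest change per list and comparison, and the 2 most alike genes per member, of which 1 is not reported here. Members and lists were chosen with earlier results of these data known.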

Additional observations from a re-analysis of the deposited data

Results flagged for a closer look

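For 4 of the RNAs the siRNA effect differed between the lines by the edgeR interaction test. HT-1080 minus HEK-293T was 2.31 log2 units for NEAT1, 2.20 for MALAT1, 1.91 for KCNQ1OT1 and 1.22 for TUG1. The last pair lay at the threshold.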

How the results depend on the processing

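The count of members called in HEK-293T was 0 to 6 when single libraries were left out and 0 with the replicate block. In HT-1080 it was 3 to 5, and 0 when all 12 libraries shared one spread. Between control lines it was 5 to 6. The interaction count was 2 to 6 when single libraries were left out, and 2 with size factors of the DESeq2 type, with library-size scaling and with the replicate block. Usage changed for 0 to 4 members in HEK-293T and 1 to 2 in HT-1080, where diffSpliceDGE gave 1. Called member transcripts numbered 0 to 23 and 5 to 6. Whether replicate numbers pair the samples is not settled by the correlations. Those of the same number were all positive (0.1911, 0.1569 and 0.0684 in HEK-293T and 0.1456, 0.229 and 0.0397 in HT-1080). Those of unlike number ran from -0.2112 to 0.1624, and not every library correlated best with its own number. With the block, NEAT1 was at -2.63 and MALAT1 at -1.95 in HEK-293T (edgeR adjusted p = 0.0686 and 0.0854), and 0 genes in all were called, against 1997 without it (4169 at an unadjusted p under 0.05). DESeq2 called 3982, one spread over all libraries 4550, no filter 1302, and leaving out siHNRNPH1 replicate 1 gave 12557. Sharing one spread gave 6237 in HT-1080, against 10538. Signs turned for OIP5-AS1 in HEK-293T without siHNRNPH1 replicate 3 (-0.0077, and up to 0.325 without replicate 1) and in HT-1080 with library-size scaling (0.0312), for its baseline with library-size scaling (-0.16) and without a filter (-0.0424), and for its ENST00000500949.6 in HT-1080 without siNegative replicate 2 (-0.0267, and up to 0.0489 without another library). For usage in HEK-293T they turned for MALAT1 ENST00000534336.2 with diffSpliceDGE (-0.0773), the block (-0.11) and without replicate 1 (-0.45, and up to 0.4562 without another library). They also turned for ENST00000619449.2 with diffSpliceDGE (0.0712) and without replicate 1 (0.62, and down to -2.19), and for NEAT1 ENST00000646243.1 without replicate 1 (-0.91, and up to 1.22). The cause was not tested. The interaction median over all genes was -0.07 with TMM and 0.04 with library-size scaling.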
